A study of Mus musculus with 4 samples.

Results

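The annexins are a family of calcium-regulated proteins, and 10 of their genes (Anxa1, Anxa2, Anxa3, Anxa4, Anxa5, Anxa6, Anxa7, Anxa8, Anxa9 and Anxa11) were taken by symbol from the 26815 entries of a deposited comparison of mouse neural stem cells. The cells were cortical neural stem cells of CD-1 embryos at E14.5, bought from a supplier and kept as adherent monolayers in EGF and bFGF. All of them had been transduced with a lentivirus and expanded under puromycin at 0.5 µg/mL; 2 libraries carried a scrambled shRNA (SHC002) and 2 an shRNA against Foxp1 (pLKO.1_sh_ex15). Each group rests on a single shRNA, and its 2 libraries are cultures of different passages. The authors' deposited table holds a single fold change per gene, of a condition named q2 over a condition named q1. Which shRNA stands behind which name is not stated in the header or the labels, so directions are those of q2 against q1. The members were chosen by family name after their log2 fold changes and q-values in this comparison had been seen.

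An annexin has a conserved core of repeated domains that binds acidic phospholipids, chiefly phosphatidylserine, when calcium rises, and a variable amino-terminal tail that binds partners such as S100 proteins. Through this switch annexins are placed at the plasma membrane, at endosomes and at secretory vesicles, where they are known for membrane repair, vesicle traffic and links between membrane and actin. In brain, Anxa1, Anxa2 and Anxa3 are better known from microglia, vessels and reactive cells than from neural progenitors, while Anxa5 and Anxa6 are broadly expressed.

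In q2, 4 of the 8 tested annexins were called higher and none lower at the authors' threshold, a q under 0.05; Anxa3, Anxa7, Anxa2 and Anxa11 were 8.47-, 6.88-, 6.11- and 4.61-fold higher by the authors' deposited table. At a q under 0.01, 2 of them remained, Anxa7 and Anxa2, against 2.94% of all genes. Over the 12159 tested single-symbol genes as a whole, 5.06% were called higher, 3.9% lower and 8.96% in either direction. Since the same values chose the members, the count describes the family and tests nothing. Anxa5, Anxa6, Anxa9 and Anxa4 were tested and not called, and Anxa1 and Anxa8 were not tested by the authors. The median log2 fold change of the 8 tested annexins was 1.55, beside -0.04 for all tested single-symbol genes. In RNA from whole cultures, a change in the share of cells that express a gene and a change in RNA per cell cannot be told apart.

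Foxp1, the forkhead factor that the shRNA targets, had a log2 fold change of -2.03 in the authors' deposited table, 4.09-fold lower (Cuffdiff q = 0.00162). Marker lists of cell types are given beside the 5.06% of all genes called higher and the 3.9% called lower. Of 11 tested neural stem cell markers 2 were called higher, Sox1 at 1.45 and Nes at 0.75 on the log2 scale in the authors' deposited table. Another 3 were called lower in the authors' deposited table, Fabp7 at -1.13, Hes5 at -0.82 and Ptprz1 at -0.80, while Sox2 at 0.04 and Pax6 at -0.10 were among the 6 not called. When p was taken from a normal distribution of the statistic, Sox1 and Fabp7 kept their calls, and Nes, Hes5 and Ptprz1 lost them. Nes and Ptprz1 also lost theirs with the GC trend removed (adjusted p read from the Cuffdiff statistic = 0.0709 and 0.388). Of 8 astrocyte markers 7 were called lower, Aqp4 at -2.70, Ndrg2 at -2.42, Gfap at -2.06, Slc1a2 at -1.17, Gja1 at -0.88, Aldh1l1 at -0.87 and Aldoc at -0.82 on the log2 scale in the authors' deposited table, and S100b at -0.20 was not called. With normal p-values Aqp4, Ndrg2 and Gfap kept their calls, and Slc1a2, Gja1, Aldh1l1 and Aldoc lost them. Aldh1l1 also lost its call with the length trend removed (adjusted p read from the Cuffdiff statistic = 0.0571). Of 5 tested neuron markers Syt1 was called higher, at 1.48, and Elavl3 lower, at -1.26, in the authors' deposited table. Elavl3 lost its call with normal p-values, and Syt1 kept it. For cell types in which annexins are well known, the tested markers were 2 of 10 for microglia and macrophages and 2 of 10 for endothelial cells and pericytes. They were 5 of 10 for fibroblasts and meninges and 1 of 7 for choroid plexus and ependyma, beside 15315 of all 26815 entries. The 2 tested microglial markers, P2ry12 at 1.37 and Cd68 at 0.98 on the log2 scale in the authors' deposited table, were not called: Cuffdiff gave an unadjusted p under 0.05 for 0 of them, and normal p-values from the statistic called 0. Of the other 8, which were not tested, Cx3cr1 is listed at 3.20, Itgam at -1.64, Ptprc at -1.04 and Csf1r at -0.70 in the authors' deposited table, and Aif1, Tmem119, Trem2 and C1qa at exactly 0. Kdr at 0.71 and Cspg4 at -0.27, the tested endothelial and pericyte markers, were not called in the authors' deposited table. Without a test, Flt1 is listed at 3.42, Tek at 2.29, Rgs5 at 1.07 and Pdgfrb at 0.43 in the authors' deposited table. Pecam1 and Kcnj8 are listed at 0.10, Cldn5 at exactly 0, and Cdh5 at 0 in q1 and above 0 in q2. Of the 5 tested fibroblast and meningeal markers Fn1 at 1.78 and Foxc1 at 1.29 were called higher, while Col1a1 at 0.43, Prrx1 at 0.37 and Twist1 at -0.44 were not called in the authors' deposited table. Of the 5 not tested, Col3a1 is listed at 2.28 in the authors' deposited table, Col1a2 at 0 in q2 and above 0 in q1, and Dcn, Lum and Foxd1 with a log2 fold change of exactly 0. Foxj1 at 0.06, the tested choroid plexus and ependymal marker, was not called in the authors' deposited table. Without a test, Clic6 is listed at 3.75, Kl at 1.99, Kcnj13 at -1.79, Ttr at -0.64 and Otx2 at 0 in that table. Folr1 is listed at 0 in q2 and above 0 in q1. The part of such cells in the annexin values was not tested.

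Anxa2, which binds S100a10 in a complex at the inner face of the plasma membrane and serves as a docking site for plasminogen activation, lies at GRCm38 chr9:69453683-69491785. Its log2 fold change was 2.61 in the authors' deposited table, with a test statistic of 4.04 (Cuffdiff p = 0.0001, q = 0.00292). The fold change divided by the statistic is used here as an implied error, a description only, since the authors' p-values do not follow a normal distribution of the statistic. For Anxa2 it was 0.65 on the log2 scale, larger than in 89.3% of tested genes. A log2 fold change of at least 2 was found in 114 of the 12090 tested genes with a finite value (0.943%), and all 4 called annexins were among them. Anxa2 stood at rank 49 from the top. It shares 98 exonic bases with Gm16144 on the opposite strand. Gm16144 has no single-symbol entry of its own in the authors' deposited table, so some of its reads may be counted as Anxa2. Of the 50-base words in the GENCODE transcripts of Anxa2, 1.35% also occur in Gm16144.

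Anxa7, also called synexin, is known for calcium-dependent aggregation and fusion of secretory vesicles and has a long tail that binds sorcin and ALG-2. It lies at GRCm38 chr14:20455261-20480133 and had the largest statistic of the family, 4.86, at a log2 fold change of 2.78 in the authors' deposited table (Cuffdiff p = 5e-05, q = 0.00162). That p is the smallest the table holds and is shared by 472 entries, so it does not rank the gene. The implied error of Anxa7 was 0.57, and it stood at rank 38.

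Anxa11, which tethers RNA granules to lysosomes and shares with Anxa7 a long tail that binds ALG-2, lies at GRCm38 chr14:25842155-25886804. Its log2 fold change was 2.21, with a statistic of 3.17 in the authors' deposited table (Cuffdiff p = 0.0005, q = 0.011). The call was lost when p was taken from a normal distribution of the statistic in the authors' deposited table, with an adjusted value of 0.0511, just over the threshold. With such normal p-values 3 annexins were called higher, against 1.88% of all genes. A further limit lies in the sequence. Of the 50-base words in the GENCODE transcripts of Anxa11, 16.2% also occur in 3 other genes. The gene that shares the most is Gm2260, an unprocessed pseudogene at GRCm38 chr14:26016431-26025837. Anxa11 also shares 113 exonic bases with Anxa11os on the opposite strand, which has no single-symbol entry of its own in the authors' deposited table. The use of strand is not given in the sources used here. Reads of these genes may be split with Anxa11 or counted as Anxa11, so the Anxa11 value is uncertain. The length of the reads is not given either, and 50 bases is a choice made here.

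Anxa3, known from phagocytic and microglial cells and as a regulator of blood vessel growth, had the highest fold change among the tested annexins but not the smallest p. It lies at GRCm38 chr5:96793385-96845968, with a log2 fold change of 3.08 and a statistic of 3.56 in the authors' deposited table (Cuffdiff p = 0.00105, q = 0.0195). Its implied error of 0.87 was larger than in 93.9% of tested genes. Anxa3 shares 112 exonic bases with Gm42603 on its own strand. Gm42603 has no single-symbol entry of its own in the authors' deposited table, so some of its reads may be counted as Anxa3. Of the 50-base words in the GENCODE transcripts of Anxa3, 1.79% also occur in Gm42603. The fold changes of the 4 called annexins spanned 2.21 to 3.08, a range about as wide as a single implied error, so their order is not resolved.

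**Figure D1:**
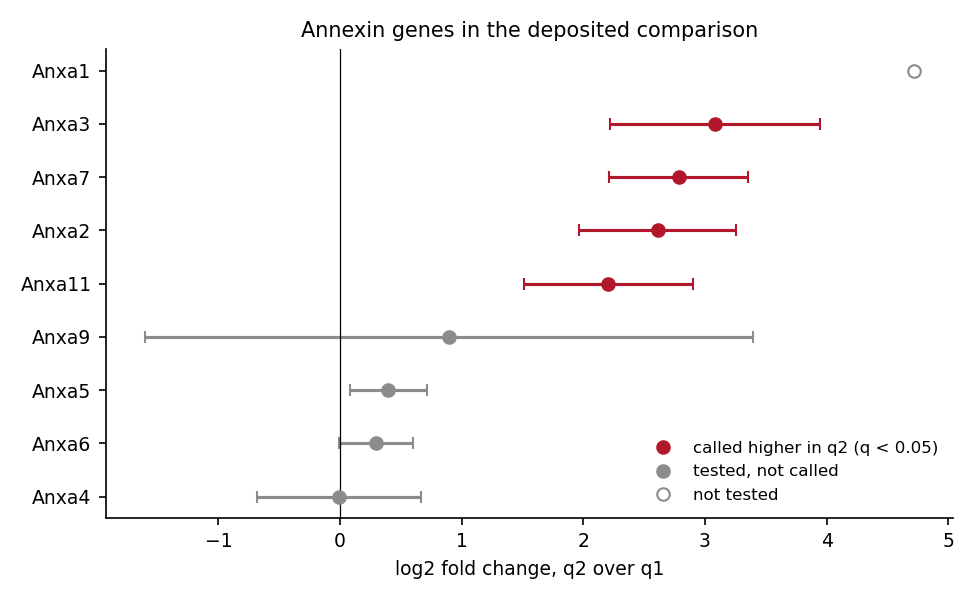
The x axis gives the log2 ratio of q2 to q1 for 9 annexins (y axis), from the authors' deposited table; bars extend by the fold change divided by the statistic to each side, red points were called higher, filled grey points were not called, and the open circle is Anxa1, which was not tested and has no bar. Anxa11, Anxa2, Anxa7 and Anxa3 lie between 2.21 and 3.08, while Anxa4, Anxa6 and Anxa5 lie between -0.01 and 0.40; Anxa8 has no finite value and is not drawn.

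Among the tested annexins that were not called, Anxa5 and Anxa6 had the most precise values of the family. Anxa5, the phosphatidylserine-binding protein used as a probe of dying cells, lies at GRCm38 chr3:36448924-36475887 and had a log2 fold change of 0.40 in the authors' deposited table (Cuffdiff p = 0.0702, q = 0.314). Its implied error was 0.32. Anxa6, a family member with a duplicated core that scaffolds protein kinase C alpha and a Ras GTPase activator at membranes, lies at GRCm38 chr11:54978962-55033471. It had a log2 fold change of 0.30 in the authors' deposited table (Cuffdiff p = 0.167, q = 0.483), with an implied error of 0.31. Both implied errors were smaller than those of the 4 called annexins, which ranged from 0.57 to 0.87. The difference between called and uncalled members was not tested.

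Anxa4, an annexin of epithelial membranes, lies at GRCm38 chr6:86736840-86793584 and had a log2 fold change of -0.01 in the authors' deposited table (Cuffdiff p = 0.975, q = 0.988). Its implied error of 0.67 was close to that of Anxa2, so this fold change of almost none came with no better precision than the large one of Anxa2. Its sign was negative as deposited and positive, at 0.03 and 0.12, after centring and after removal of a GC trend.

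Anxa9, whose calcium-binding sites are degenerate, had a log2 fold change of 0.90 in the authors' deposited table with an implied error of 2.50, larger than in 98.3% of tested genes (Cuffdiff p = 0.617, q = 0.859). The authors' locus for Anxa9, GRCm38 chr3:95282935-95307176, reaches beyond the GENCODE gene, chr3:95296096-95307176, into Mindy1 on the opposite strand. Mindy1 has an entry under its older symbol Fam63a, at a log2 fold change of -0.40 in the authors' deposited table (Cuffdiff q = 0.329). Anxa9 also shares 94 exonic bases with 6330562C20Rik on its own strand. The implied error of Anxa9 exceeds its fold change, so neither a rise nor a fall of several fold can be told from no change.

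Anxa1 and Anxa8 have no statistic. Anxa1, the glucocorticoid-induced annexin that signals through formyl peptide receptors, lies at GRCm38 chr19:20373434-20390671 and is listed with a log2 fold change of 4.72 in the authors' deposited table, the highest finite value of the family and one with no test. Its receptor genes Fpr1, Fpr2 and Fpr3 were not tested either, and each is listed with a log2 fold change of 0. Anxa8, an annexin of stratified epithelia, is listed at 0 in q1 and above 0 in q2, so it has no finite fold change. Its locus in the table, GRCm38 chr14:34051130-34102754, covers A630023A22Rik and Antxrl as well as the GENCODE gene at chr14:34085981-34100571. The table also holds Anxa10 and Anxa13, outside the chosen members, both not tested and with a log2 fold change of 0.

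**Figure D2:**
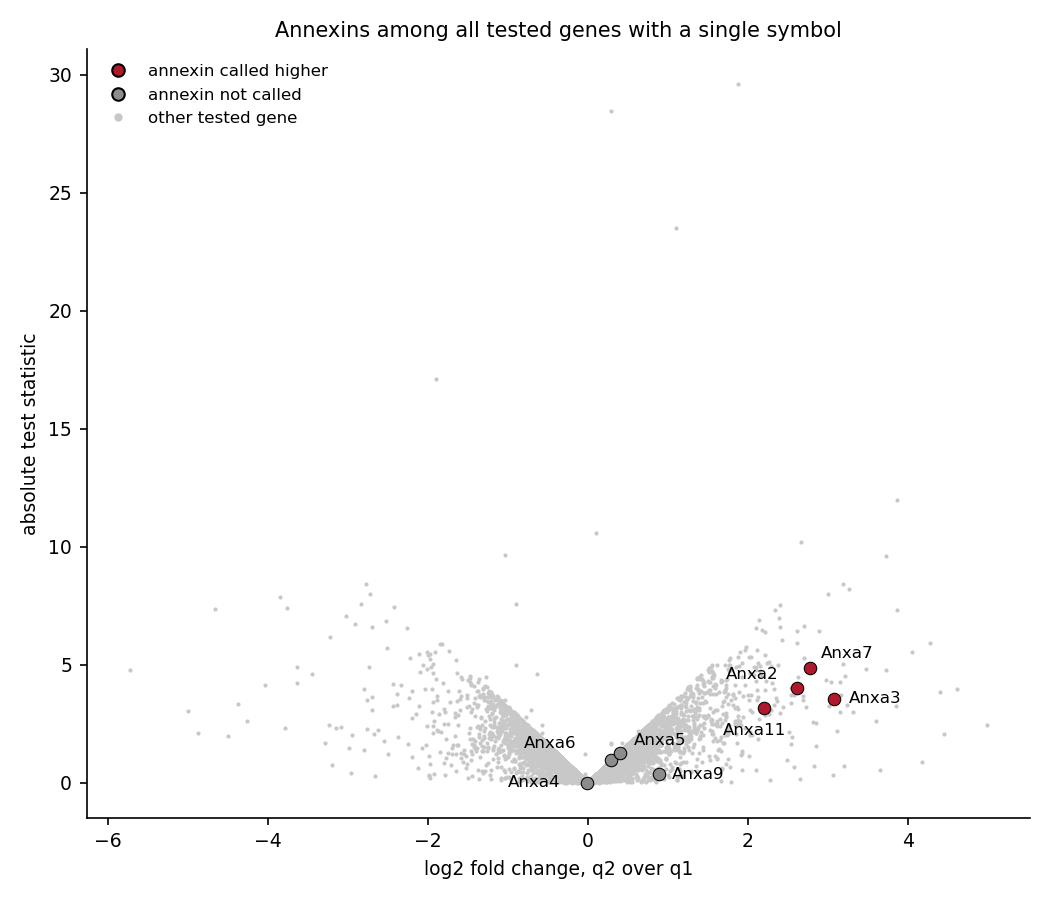
Each point is a gene of the authors' deposited table, with its log2 ratio of q2 to q1 on the x axis and the size of its statistic on the y axis; small grey points are 12090 tested single-symbol genes with a finite value, and large points are the 8 tested annexins, red if called higher. The 4 called annexins stand at ranks 27 to 83 from the right, at statistics of 3.17 to 4.86, inside the spread of other genes with a large fold change rather than at its edge.

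Called and uncalled annexins overlapped in gene structure and base composition. In GENCODE M21 the longest coding transcript has 12 to 15 exons for every member except Anxa6, which has 26 exons and 2019 coding bases. The called members include both long-tailed annexins, Anxa7 with 1455 and Anxa11 with 1509 coding bases, beside Anxa2 with 1017 and Anxa3 with 969. Transcript GC content ran from 46.6% for Anxa3 to 55.2% for Anxa11 among the called members and from 47.8% for Anxa4 to 53.9% for Anxa6 among the tested others. Removing the trend of fold change with GC content left 4 called, against 4.19% of genes called higher in that setting, with Anxa3 at 3.24, Anxa7 at 2.88, Anxa2 at 2.55 and Anxa11 at 2.07. That setting reads p from the statistic. With no trend removed, this step alone lowered the adjusted p of Anxa3 and Anxa11 (Cuffdiff q = 0.0195 and 0.011) to 0.00457. It raised those of Anxa2 and Anxa7 to the same value.

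Promoter windows from RefSeq on GRCm38.p6, 250 bases before to 50 after a transcription start, were found for 9 of the 12 annexin symbols, with 12 windows in all. Anxa3 and Anxa6 have none in the table used. The windows were searched on both strands for 6 short motifs. The forkhead motif was searched as GTAAACA. The AP-1 motif was searched as TGANTCA. The motif of Sp and Klf factors was taken as GGGCGG, that of TEAD factors as GGAATG and that of NF-Y as CCAAT. The letters TATAAA stood for a TATA box. The first 250 bases of 5 windows are shown 5′ to 3′ on the gene's strand, for the called members with a window, for Anxa8 as the 1 annexin window with a forkhead match and for Anxa5 as a member that was not called. Capitals mark matches to the forkhead, AP-1 and Sp and Klf letters on either strand.
Anxa2 (chr9:69453433-69453682, plus strand): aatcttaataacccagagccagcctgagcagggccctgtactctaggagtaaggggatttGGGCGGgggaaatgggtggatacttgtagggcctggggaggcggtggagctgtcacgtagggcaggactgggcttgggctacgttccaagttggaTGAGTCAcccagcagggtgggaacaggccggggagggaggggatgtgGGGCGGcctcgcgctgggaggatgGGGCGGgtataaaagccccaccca
Anxa7, downstream start (chr14:20479942-20480191, minus strand): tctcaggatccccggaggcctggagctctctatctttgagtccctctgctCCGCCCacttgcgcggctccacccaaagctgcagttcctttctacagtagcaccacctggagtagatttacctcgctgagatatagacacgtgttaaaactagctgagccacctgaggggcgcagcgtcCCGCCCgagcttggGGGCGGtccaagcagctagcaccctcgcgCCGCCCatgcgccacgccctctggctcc
Anxa11 (chr14:25841905-25842154, plus strand): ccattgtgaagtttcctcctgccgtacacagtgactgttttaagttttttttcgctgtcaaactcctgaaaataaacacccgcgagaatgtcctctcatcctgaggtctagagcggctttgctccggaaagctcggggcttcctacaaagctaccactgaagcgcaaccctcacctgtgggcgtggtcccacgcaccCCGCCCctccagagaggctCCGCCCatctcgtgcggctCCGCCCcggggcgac
Anxa8 (chr14:34085729-34085978, plus strand): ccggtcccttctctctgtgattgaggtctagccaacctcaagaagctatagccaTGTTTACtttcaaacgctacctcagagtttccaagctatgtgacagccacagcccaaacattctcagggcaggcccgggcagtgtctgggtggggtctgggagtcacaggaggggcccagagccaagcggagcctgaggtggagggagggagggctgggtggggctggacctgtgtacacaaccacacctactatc
Anxa5 (chr3:36475888-36476137, minus strand): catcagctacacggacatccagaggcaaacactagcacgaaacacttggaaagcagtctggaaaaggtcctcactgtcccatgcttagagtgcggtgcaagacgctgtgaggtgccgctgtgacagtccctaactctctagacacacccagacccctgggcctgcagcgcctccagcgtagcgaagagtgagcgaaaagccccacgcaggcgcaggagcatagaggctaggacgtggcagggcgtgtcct

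The letters GGGCGG occurred in all 4 windows of the called Anxa2, Anxa7 and Anxa11, in 1 of 5 windows of the tested but not called Anxa4, Anxa5 and Anxa9, in 0 of 3 windows of the untested Anxa1, Anxa8 and Anxa10, and in 35.7% of 32851 windows of all genes. The 2 windows of Anxa7 overlap and share a match, so they are not independent. GTAAACA occurred in 1 of the 12 annexin windows, that of Anxa8, and in 3.65% of all windows. TGANTCA occurred in Anxa2 and Anxa10, against 7.81% of all windows, and CCAAT in 0 of 12, against 37.4%. GGAATG occurred in 1 of 12, that of Anxa1, against 14.7% of all windows, and TATAAA in 3 of 12, those of Anxa1, Anxa2 and Anxa10, against 13.6%. The windows ranged from 1 CpG dinucleotide in Anxa10 to 36 in the upstream window of Anxa9, with 4 to 25 among the called members and a median of 7 over all windows. That Anxa9 window, chr3:95315131-95315430, lies outside the GENCODE gene and the authors' locus, which both end at 95307176. It overlaps the authors' locus for Setdb1, which starts at 95315252. A match describes letters only, and the absence of one says nothing about the factor.

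**Figure D3:**
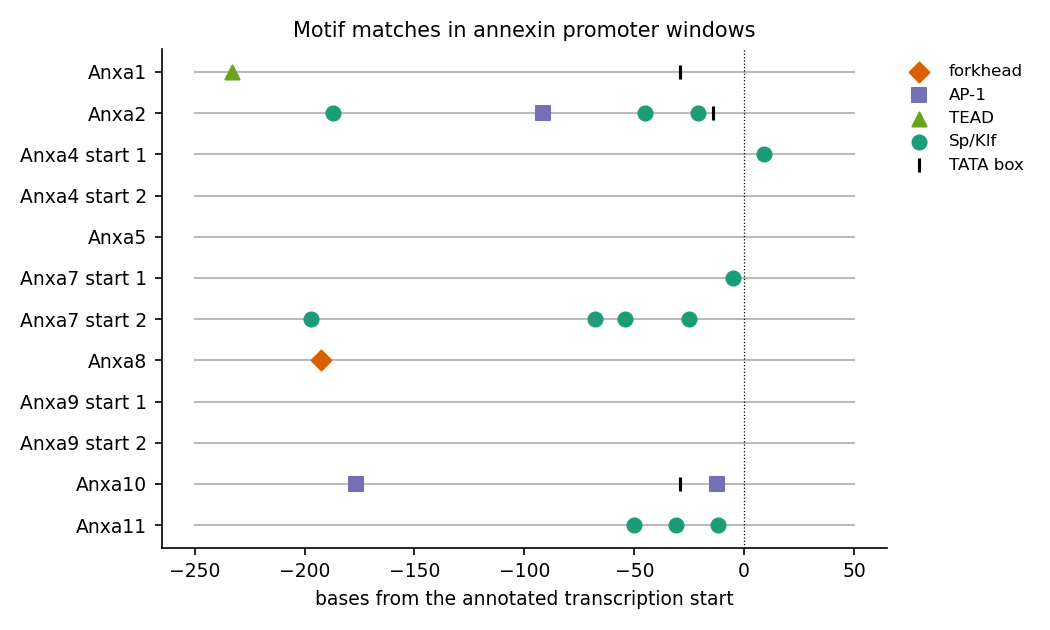
Matches to 5 motifs (symbols) along 12 annexin promoter windows (y axis), plotted by distance in bases from the annotated start (x axis). Anxa2, Anxa7 and Anxa11 hold Sp and Klf matches before the start, and Anxa8 holds the forkhead match. Anxa5, the downstream window of Anxa4 and both windows of Anxa9 hold no match.

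Within 250 kb of the 10 loci, 64 tested single-symbol genes were counted, of which 1 was called higher and 3 lower, against 5.06% and 3.9% of all. Counts this small and this near to the background show nothing particular to the neighbours. Near the called Anxa2, Anxa7 and Anxa11 no neighbour was called, of 2, 13 and 4. The neighbour called higher was Fras1, a basement membrane gene beside Anxa3, at 1.79 on the log2 scale in the authors' deposited table (Cuffdiff q = 0.00162). Beside Anxa1 both tested neighbours were called lower in the authors' deposited table, Aldh1a1, an enzyme of retinoic acid synthesis, at -3.76 and E030003E18Rik at -3.63 on the log2 scale, opposite in sign to the untested 4.72 of Anxa1. Gm2a, the ganglioside activator gene beside Anxa6, was at -1.74 in the authors' deposited table.

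**Figure D4:**
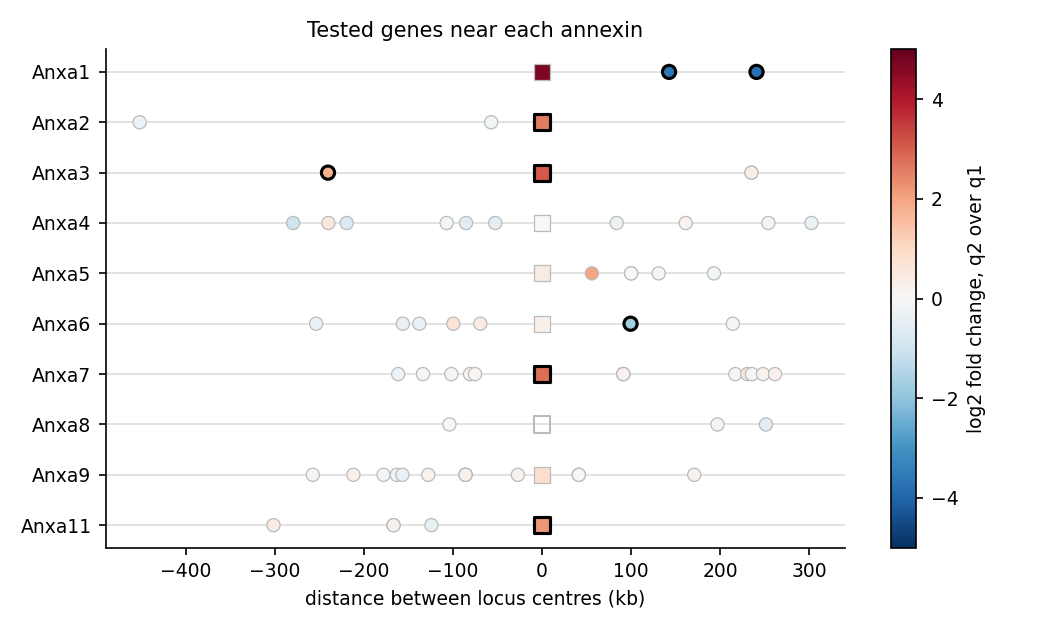
Colour gives the log2 ratio of q2 to q1 (authors' deposited table) for tested genes whose loci lie within 250 kb of an annexin locus, by distance between locus centres in kb (x axis) and annexin (y axis). Squares are the annexins, circles are neighbours, thick black outlines mark called genes and the open square is Anxa8; genes assigned the same locus lie on top of each other, and 4 of 64 neighbours are outlined.

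Of 12 tested annexin ligands, receptors and partners 3 were called higher and none lower, against 5.06% and 3.9% of all genes, and the list's median was 0.11. S100a10, the partner of Anxa2, stood at 1.60 on the log2 scale in the authors' deposited table, 3.04-fold higher (Cuffdiff q = 0.00162), and S100a11, the partner of Anxa1, at 1.11 was 2.15-fold higher (Cuffdiff q = 0.00527). Pla2g4a, the cytosolic phospholipase A whose activity annexins inhibit, rose 2.74-fold by the authors' deposited table (Cuffdiff q = 0.0232). With normal p-values 1 of the 12 was called higher, S100a10, against 1.88% of all genes. The other S100 partners were not called: S100a6, which binds Anxa11, was at -1.45 and S100a4 at 0.98 on the log2 scale in the authors' deposited table, with implied errors of 1.19 and 0.95. The calcium sensors of the Anxa7 and Anxa11 tails were near 0 in the authors' deposited table, Pdcd6 (ALG-2) at 0.17 and Sri (sorcin) at -0.12. So were Plat, the plasminogen activator that docks on Anxa2, at -0.15 and Egfr at 0.05 in the authors' deposited table. The Anxa6 partners Prkca, the kinase, and Rasa1, the Ras GTPase activator, had values of -0.61 and -0.34 by the authors' deposited table, with Tiam1 at 0.64, none of them called. Ahnak, the giant scaffold that binds the Anxa2 and S100a10 complex, and Plg were not tested.

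Of 18 tested genes of plasma membrane repair, Cuffdiff called 3 higher and none lower, against 5.06% and 3.9% of all genes, with a median of -0.05. Myof (myoferlin) and Ptrf (cavin-1 of caveolae) rose 5.10- and 6.15-fold by the authors' deposited table (Cuffdiff q = 0.00162 for both). Ehd2, an ATPase of caveolar necks, was at 0.78 on the log2 scale by the authors' deposited table (Cuffdiff q = 0.0118). Ehd2 lost its call with the GC trend removed (adjusted p read from the Cuffdiff statistic = 0.108) and with normal p-values. With normal p-values 2 of the 18 were called higher, Myof and Ptrf, against 1.88% of all genes. Dysferlin (Dysf) at -0.43, caveolin (Cav1) at 0.02, the calpains Capn1 at 0.76 and Capn2 at -0.18, and the ESCRT genes Chmp4b at -0.04 and Pdcd6ip at 0.20 were not called in the authors' deposited table. For the exposure and recognition of phosphatidylserine, the lipid that annexins bind, 1 of 16 tested genes was called, the integrin Itgav at -1.82 by the authors' deposited table, with a list median of -0.08; over all genes 8.96% were called in either direction, so this count is near the background. Among copines and extended synaptotagmins, other proteins that bind membranes through calcium, 1 of 6 was called higher, Cpne2 at 1.36 in the authors' deposited table, with a median of 0.69, against 5.06% of all genes called higher. All 14 S100A genes of the table, a family picked after its values were seen, gave 7 tested members, of which 2, S100a10 and S100a11, were called higher, against the same 5.06%.

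**Figure D5:**
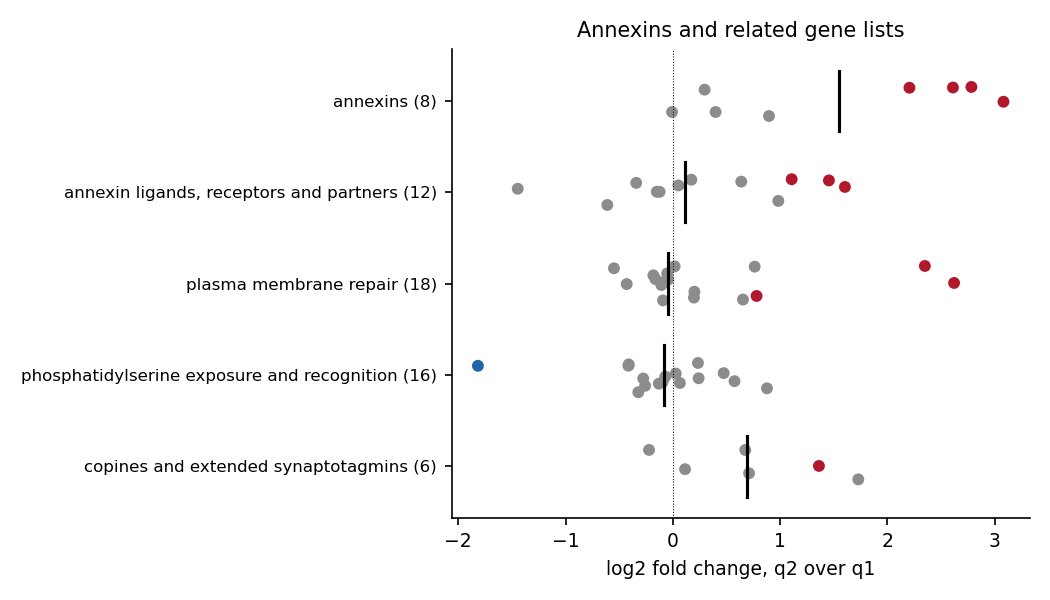
Genes of 5 lists (rows, with the count of tested members) are placed by their log2 ratio of q2 to q1 on the x axis, from the authors' deposited table; red marks a call for higher, blue a call for lower and grey no call, and each black bar is a median. The annexin median is 1.55, with 4 red points above 2.2, and the medians of the other lists lie between -0.08 and 0.69.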

How the data were processed

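Poly(A) RNA of 4 libraries, 2 per group by their titles, was measured, per the labels' protocols, from libraries of the SOLiD Total RNA-Seq kit. The submitters' processing notes name TopHat2 2.0.9, Cufflinks 2.2.1, Cuffdiff and mm10 (GRCm38); the annotation, filters, strand use and Cuffdiff version are not given in the sources read. The authors deposited log2 fold changes of q2 over q1, a test statistic (a score) and p-values and q-values, per the file headers. The q-values equal a Benjamini-Hochberg adjustment over the 15315 tested entries; 11500 were not tested. The 2 columns of values per condition match no labelled group and were not used, so levels, spread between replicates and depth are unknown, and p-values may measure only technical spread.

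Members, lists and tests were chosen with earlier results of these data known. All annexins, Foxp1, tested partners and called members of other lists are named; further genes were picked after their values were seen. The calls reported are the authors' own; p-values were recomputed for alternatives only. Transcript GC content and length came from GENCODE M21 for 99.4% of tested single-symbol genes. The median fold change in 50 bins was subtracted, and a new p was interpolated from how the deposited p-values fall with the statistic. Both steps were run on simulated data in which p followed a normal distribution of the statistic. The deposited p-values do not, so the interpolation was not tested for them. Alternatives were other q thresholds, a minimum log2 fold change of 1, normal p-values, adjustment over single-symbol entries, centring, both trend removals and, added after seeing the data, p read from the statistic alone. File starts were converted to count from 1. Tools were matplotlib 3.10.9, scikit-learn 1.9.0, pandas 2.3.3, scipy 1.17.1 and numpy 2.4.6 under Python 3.11.15.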

Additional observations from a re-analysis of the deposited data

How the results depend on the processing

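The 4 annexin calls held under every alternative except a q under 0.01, which left 2, Anxa2 and Anxa7, and normal p-values, which left 3 without Anxa11. Centring and both trend removals read p from the statistic, a step that by itself lowered the adjusted p of Anxa3 and Anxa11. The annexin median log2 fold change of 1.55 was 1.59 after centring, 1.43 with the GC trend removed and 1.55 with the length trend removed. Calls among annexin ligands, receptors and partners went from 3 to 5 of 12 at a q under 0.1, 4 higher and 1 lower. Normal p-values left 1 of them, called higher. Those for phosphatidylserine exposure and recognition went from 1 to 2 of 16 at a q under 0.1, 1 higher and 1 lower. Those for copines and extended synaptotagmins went from 1 to 2 of 6, all higher, at a q under 0.1 and with the length trend removed. Of all single-symbol genes, 12% were called in either direction at a q under 0.1. The share was 9.48% with the length trend removed and 3.14% with normal p-values. Foxp1 kept its call and direction under all alternatives run. Over all entries, 1168 calls became 667 at a q under 0.01, 687 with a minimum log2 fold change of 1 and 457 with normal p-values. No paired analysis was possible because the table holds no values per library, and for the same reason leaving out a replicate was not run. Anxa1 and Anxa8 carry the Cuffdiff status NOTEST, and their levels and the depth are unknown. The 4.72 of Anxa1 therefore has no statistic and no implied error.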
